A study of Mus musculus with 9 samples.

Results

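Complement components and regulators, 9 genes in all, were followed in the bone marrow of mice with and without Spop, the substrate adaptor of a cullin-3 ubiquitin ligase. They are C3, the C1q chain genes C1qa, C1qb and C1qc, Cfp (properdin), C3ar1 (receptor of the C3a fragment), Cd55, Cr1l (which encodes Crry) and Cd59a. All 9 were found by symbol, among 37187 genes in the LSK table and 45076 in the neutrophil table. They were chosen by their levels in knockout and wild-type LSK cells, where C3 was higher and the C1q genes were lower in knockout. Values of that contrast are therefore a description with no test, and the neutrophil contrast, which the choice did not use, was tested.

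Complement is a chain of plasma proteins that tags particles for uptake and can punch membranes. It starts from C1q bound to a surface (classical pathway), from lectins and ficolins (lectin pathway) or by slow self-activation (alternative pathway), and all 3 routes cleave C3. Liver makes most plasma C3, macrophages make most C1q, and neutrophils store properdin. Membrane regulators such as CD55, Crry and CD59 keep blood cells from being attacked.

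LSK cells are the lineage-negative, Sca-1-positive, Kit-positive marrow fraction that holds stem cells and multipotent progenitors. The groups were Spop(+/+) LSK cells (2 libraries), LSK cells labelled knockout with the genotype Spop(D/D) (2), Spop(+/+) Ly6G+ marrow neutrophils (2) and Spop(D/D) neutrophils (3), all from mice aged 4 to 12 weeks. The labels name no driver of the deletion and do not tell whether libraries of 1 group stem from different mice. The p-values hence reflect only how these libraries vary, which may be technical. For the second LSK knockout library the cell type is entered as neutrophil, against its title. It was kept as LSK. Ly6g was at 0 in all 4 LSK libraries, while the 11 neutrophil markers summed to 37.1 and 49.3 CPM in the wild-type and 165 and 104 CPM in the knockout LSK libraries. Of 9 tested, Lcn2, Cxcr2 and Mmp8 were higher in knockout and Ngp and Ltf lower (edgeR, adjusted p under 0.05), beside 21.0% and 21.2% of all genes. Ltf passed the expression filter only through wild type, and Ngp only with the help of wild-type libraries. The calls of Ngp and Ltf are therefore not read as tests. Counted reads ran from 18827892 to 20264417 per LSK library and from 21012702 to 27434086 per neutrophil library.

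Marker genes were read before the results. The 8 LSK markers summed to 4828 and 4539 CPM (a gene's share of the library's reads after TMM scaling) in the wild-type and 2686 and 2936 CPM in the knockout LSK libraries. Of these, 7 were lower in knockout, among them Kit (990 and 1049, then 605 and 644 CPM), and Ly6a was higher (edgeR, adjusted p under 0.05). At that threshold 21.2% of all genes tested were lower and 21.0% higher. Ly6g stood at 85.7 to 914 CPM in the neutrophil libraries. The second wild-type neutrophil library stood apart. Its 11 neutrophil markers summed to 38672 CPM, against 223730 to 674330 CPM in the other 4, and its B cell markers to 1815 CPM, against 3.08 to 73.0 CPM. Red cell markers summed to 18344 CPM in the third knockout neutrophil library and to 1.86 to 3655 CPM in the other 4. Both wild-type neutrophil libraries held Xist (10.7 and 90.5 CPM) and nearly no reads of the Y-linked Eif2s3y (0 and 0.0302 CPM), while the 3 knockout libraries held 0 to 0.198 CPM of Xist and 48.9 to 95.2 CPM of Eif2s3y. Sex and genotype therefore cannot be told apart in neutrophils. All 4 LSK libraries held Eif2s3y (47.0 to 77.6 CPM) and at most 0.507 CPM of Xist.

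C3 encodes the central component, whose cleavage gives the C3a and C3b fragments. The gene lies on chromosome 17 (57203970 to 57228136, minus strand, GRCm38). Its LSK level was 4.36 and 5.72 CPM with intact Spop, against 70.4 and 71.7 CPM with the deletion. The groups lay far apart, and the knockout pair differed by less than the wild-type pair. The mean went from 5.04 ± 0.962 to 71.0 ± 0.954 CPM (SD, n = 2 each), a 14.1-fold difference (log2 3.81, SE 0.171). This is one of the values on which the set was selected. Markers of granulocyte-monocyte precursors moved in the same direction. All 8 of that list, among them Mpo, Elane and Ms4a3, were higher in knockout LSK cells, with sums of 1640 and 2180 CPM in the wild-type and 16310 and 19101 CPM in the knockout libraries. Of 8 monocyte markers 7 were higher as well and 0 lower, beside 21.0% of all genes higher (edgeR, adjusted p under 0.05). The part of either list in the values of C3, and in those of C4b and Fcnb given later, was not tested.

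The 3 C1q genes encode the A, B and C chains that assemble into the C1q molecule. They lie in a row on the minus strand of chromosome 4, C1qa (136895917 to 136898803), C1qc (136889804 to 136893065) and C1qb (136880129 to 136886187). The gaps are 2851 and 3616 bases and hold no other annotated gene. The sequences just upstream of C1qb and C1qc, the members of that row in the RefSeq table, and of C3 are shown because these genes had the largest genotype differences. They are RefSeq promoter sequences of GRCm38.p6, 5′ to 3′ on the gene's strand, cut so that no annotated transcript is included. The C3 stretch is chr17:57228137-57228386, minus strand, that of C1qb is chr4:136886201-136886450, minus strand, and that of C1qc is chr4:136893066-136893164, minus strand.

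C3: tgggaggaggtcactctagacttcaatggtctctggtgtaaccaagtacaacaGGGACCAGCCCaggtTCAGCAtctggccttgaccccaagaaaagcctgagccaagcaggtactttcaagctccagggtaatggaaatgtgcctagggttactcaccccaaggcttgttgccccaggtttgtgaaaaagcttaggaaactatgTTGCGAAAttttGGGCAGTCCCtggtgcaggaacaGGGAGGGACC
C1qb: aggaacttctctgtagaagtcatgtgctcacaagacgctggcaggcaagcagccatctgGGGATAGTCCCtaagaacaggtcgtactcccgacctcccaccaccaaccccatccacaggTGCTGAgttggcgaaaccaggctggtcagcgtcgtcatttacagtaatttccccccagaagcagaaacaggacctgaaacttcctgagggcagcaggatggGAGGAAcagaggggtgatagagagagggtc
C1qc: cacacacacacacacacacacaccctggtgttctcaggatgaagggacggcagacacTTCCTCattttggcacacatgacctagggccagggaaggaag

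Capitals mark matches, on either strand, to 5 motifs chosen after the values were known: GAGGAA (ETS factors including PU.1), TTGCNNAA (C/EBP), GGGNNNNNCC (NF-kB), TGANTCA (AP-1) and TGCTGA (MAF half-site). The C3 stretch held TTGCNNAA 45 bases before the start, and 9.56% of 32851 promoter windows of 250 bases hold that motif. It also held GGGNNNNNCC, which 45.8% of those windows hold, and TGCTGA (16.1%). The C1qb stretch held GAGGAA 30 bases before the start, a motif of 23.3% of the windows, and GGGNNNNNCC and TGCTGA as well. The 99 bases of C1qc held GAGGAA, as did 9.91% of windows of that length. Neighbouring and overlapping matches run together in the capitals, and a match is a description of letters, not a bound site. The RefSeq table held 8 of the 9 genes.

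In wild-type LSK cells all 3 chain genes were present at a low level. C1qb stood at 10.4 and 12.4 CPM in wild type against 0.417 and 0.319 CPM in knockout. C1qc stood at 7.91 and 8.02 CPM in wild type against 0.417 and 0.213 CPM in knockout. C1qa stood at 5.38 and 6.47 CPM in wild type against 0.521 and 0.160 CPM in knockout. No knockout LSK library reached the wild-type range for any chain, and the knockout values rest on few reads. The 2 knockout libraries together held 13 reads of C1qa, 14 of C1qb and 12 of C1qc, against 244, 471 and 327 in wild type. After scaling, the ratio of wild type to knockout was 17.4 for C1qa, 31.1 for C1qb and 25.2 for C1qc.

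C1qb reads were the most numerous of the 3 chains in 8 of the 9 libraries, and C1qa reads in the first knockout LSK library. C1qb took 44.0% of the C1q reads in the first wild-type LSK library (95% Wilson interval 39.6 to 48.5, 468 reads) and 46.2% in the second (42.1 to 50.3, 574 reads). In the second wild-type neutrophil library, which held 10093 C1q reads, its share was 41.2% (40.3 to 42.2). The share of C1qa was 22.7% and 24.0% in wild-type LSK cells and 24.4% in the first wild-type neutrophil library, but 29.1% (28.2 to 29.9) in the second. The knockout LSK libraries held 26 and 13 C1q reads, too few to place the shares more closely than the widths in the plot of chain shares. The libraries carry no molecular tags and PCR copies count as reads, so the intervals of the shares cover counting error only.

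**Figure D1:**
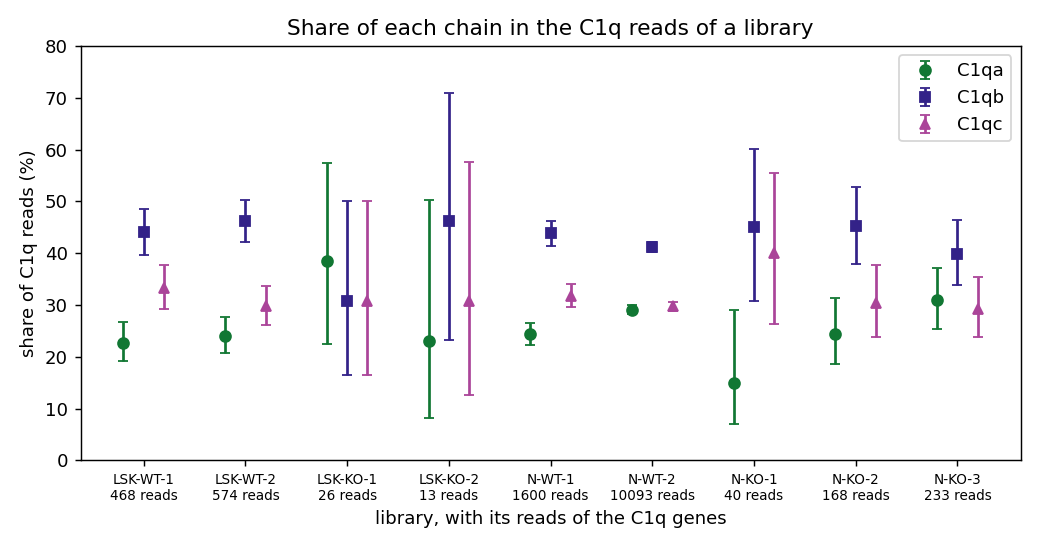
Share of C1qa, C1qb and C1qc reads (percent, y axis) in the C1q reads of each library (x axis, with the number of reads); error bars are 95% Wilson intervals for counting error. C1qb has the highest share in 8 of the 9 libraries, and the intervals are widest in the knockout LSK libraries, with 26 and 13 reads.

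Properdin, encoded by Cfp on the X chromosome (20925454 to 20931555), stabilises the alternative pathway convertase. Cfp stood at 40.1 and 36.5 CPM in wild-type against 43.6 and 63.6 CPM in knockout LSK cells. The groups did not overlap, but the knockout libraries differed more from each other than the nearer one did from wild type. The log2 fold change was 0.49 (SE 0.170), 0.77 when the first knockout library was left out and 0.19 when the second was.

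The membrane regulators differed unequally. CD55 speeds the decay of convertases, Crry acts as a cofactor for C3b cleavage in rodents, and CD59 blocks the membrane attack complex. Cr1l (chromosome 1, 195097382 to 195131586) stood at 106 and 99.6 CPM in wild-type against 114 and 112 CPM in knockout LSK cells, a log2 fold change of 0.13 (SE 0.102). Cd55 (chromosome 1, 130439027 to 130462744) stood at 21.6 and 24.6 CPM in wild type against 23.0 and 17.7 CPM in knockout, with overlapping groups (log2 -0.18, SE 0.186). Cd59a (chromosome 2, 104095801 to 104115354) stood at 18.8 and 19.0 CPM in wild type against 14.9 and 7.02 CPM in knockout. Both knockout libraries were below wild type for Cd59a, by unequal amounts. Its log2 fold change was -0.79 (SE 0.304), -1.39 leaving out the first knockout library and -0.35 leaving out the second. Reads of Cd59a and of the neighbouring copy Cd59b, or of Cd55 and Cd55b, can be split between the copies, so these values are less certain. An antisense transcript shares 2.10% of the Cd55 exon bases.

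C3ar1 (chromosome 6, 122847138 to 122856161), the receptor gene of the set, was close to the floor of 3 reads in LSK cells. Its levels were 0.355 and 0.141 CPM in wild type and 0.156 and 0.106 CPM in knockout, where the floor is 0.141 to 0.160 CPM. It did not pass the expression filter, which the other 8 did. The C1q genes passed it in LSK cells only through wild type. Between the genotypes 7 of the 9 genes did not overlap in LSK cells, 3 higher and 4 lower in knockout. With 2 libraries against 2, groups did not overlap for 34.6% (higher) and 38.3% (lower) of the 13008 genes tested. In the same contrast 21.0% of the 13008 genes tested were called higher and 21.2% lower (edgeR quasi-likelihood test, adjusted p under 0.05).

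**Figure D2:**
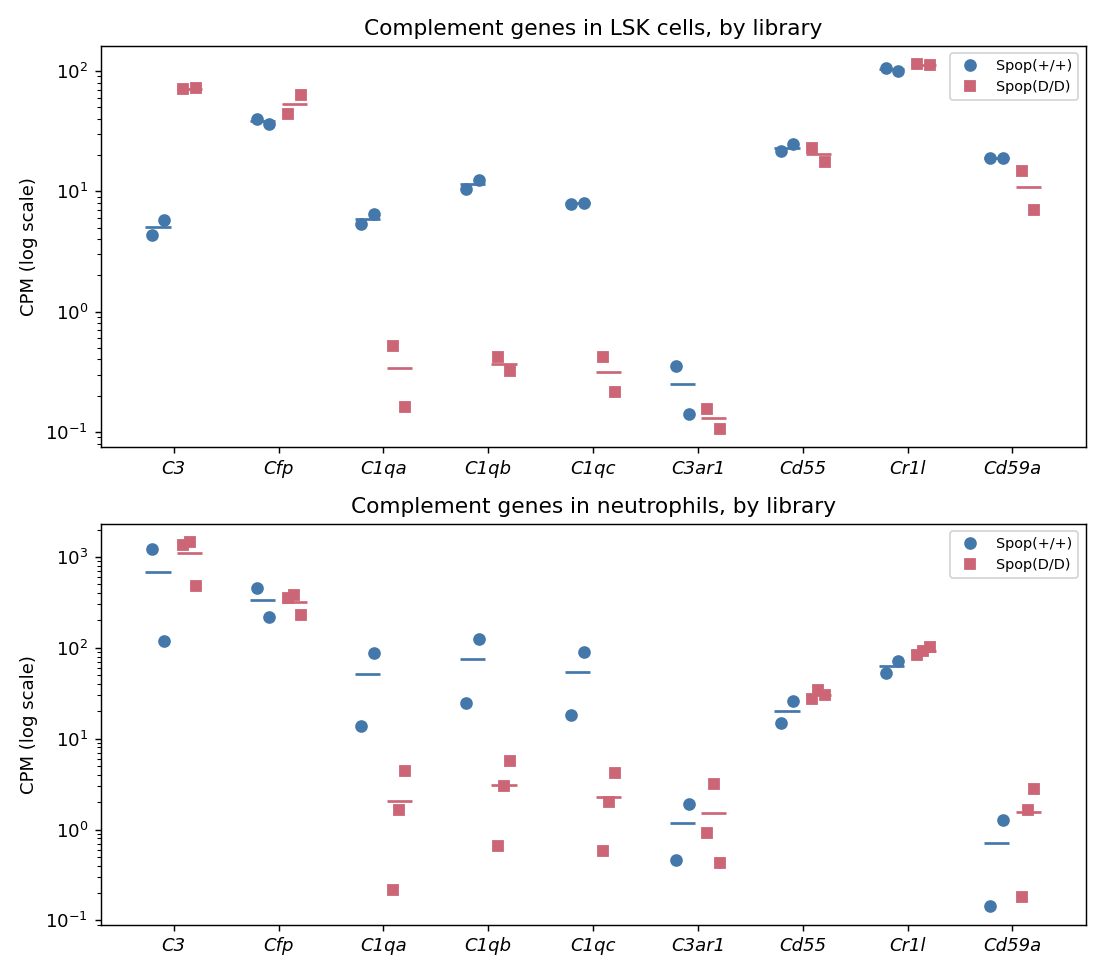
CPM on a log axis for the 9 complement genes in each library, LSK cells above and neutrophils below; circles are Spop(+/+), squares Spop(D/D), and bars are group means. In LSK cells C3 sits at 70.4 and 71.7 CPM in knockout against 4.36 and 5.72 CPM in wild type, and in both populations every knockout library lies below every wild-type library for the C1q genes.

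Per kilobase of exon, Cfp was the most abundant of the 9 transcripts in wild-type LSK cells, at 21.0 to 23.1 CPM per kilobase. C1qb (9.60 to 11.4), Cd59a (10.4 to 10.5) and Cr1l (9.62 to 10.3) followed with overlapping ranges. C1qa (5.17 to 6.22), Cd55 (4.44 to 5.07) and C1qc (4.10 to 4.15) came next, then C3 (0.848 to 1.11) and C3ar1 (0.0327 to 0.0825). In knockout LSK cells Cfp was still first (25.1 to 36.6 CPM per kilobase) and C3 second (13.7 to 13.9), while the C1q genes stood at 0.110 to 0.501. Exon length counts all annotated exons, and it is 10349 bases for Cr1l, so that a transcript with fewer of them has its level understated.

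In neutrophils C3 and Cfp had the highest group means of the set, and the C1q genes again had lower values in knockout. In the second wild-type library C1qb (126 CPM) was above C3 (118 CPM). Levels were scaled within each population and are not set against LSK cells. No gene passed the test in this contrast (0 of 12836 with edgeR, 0%), where 1787 genes had an unadjusted p under 0.05 and DESeq2 called 877 (6.84%). None of the 9 genes passed with edgeR.

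C1qb stood at 24.9 and 126 CPM in wild-type neutrophils and at 0.656, 3.0 and 5.69 CPM in knockout. C1qc stood at 18.1 and 90.7 CPM in wild type against 0.583, 2.02 and 4.16 CPM in knockout. C1qa stood at 13.9 and 88.6 CPM in wild type against 0.219, 1.62 and 4.40 CPM in knockout. All 3 knockout libraries lay below both wild-type libraries for each chain, as for 17.5% of all genes tested, and the spread within a genotype was wide. The log2 fold change was -4.61 for C1qb (SE 1.02, 95% interval -7.05 to -2.16, adjusted p = 0.209, edgeR). For C1qc it was -4.61 (SE 0.971, interval -6.92 to -2.30, adjusted p = 0.209, edgeR) and for C1qa -4.64 (SE 1.28, interval -7.75 to -1.54, adjusted p = 0.229, edgeR). Of all genes tested, 9.13% were lower with an unadjusted p under 0.05.

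The neutrophil values of C1q rest in part on the second wild-type library. Without it the log2 fold changes were -3.04 for C1qb, -3.05 for C1qc and -2.79 for C1qa (adjusted p = 0.539, 0.539 and 0.557, edgeR). Without that library and the third knockout library they were -3.80, -3.83 and -3.95. Without the first wild-type library C1qb and C1qc passed (adjusted p = 0.0418 and 0.0370, edgeR), as they did with the spread shared over 9 libraries (0.0392 and 0.0386; C1qa 0.0558). With a replicate block all 3 passed (adjusted p = 5.67e-05 for C1qa and C1qb and 9.64e-05 for C1qc, edgeR), though whether the numbers pair the libraries could not be settled. DESeq2 called all 3 chains (adjusted p = 1.18e-04 for C1qb, 7.36e-05 for C1qc and 0.00159 for C1qa).

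C3 stood at 1229 and 118 CPM in wild-type neutrophils and at 1343, 1462 and 481 CPM in knockout. The low wild-type value belongs to the library with few neutrophil marker reads. The groups overlapped, at a log2 difference of 0.70 (SE 0.988, interval from -1.63 to 3.04; adjusted p = 0.783, edgeR). Without the second wild-type library the difference turned to -0.20 (SE 0.661), and without the first it was 3.27 (adjusted p = 0.0872, edgeR).

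Cfp stood at 456 and 220 CPM in wild-type neutrophils and at 352, 383 and 230 CPM in knockout, with overlapping groups. Its log2 fold change was -0.07 (SE 0.511, interval -1.28 to 1.14, adjusted p = 0.964, edgeR), with positive values in 3 of the alternatives (0.12 to 0.61). Per kilobase of exon, Cfp reached 127 to 263 and C3 23.0 to 239 CPM per kilobase in wild type, overlapping ranges. C1qb followed at 22.9 to 116 CPM per kilobase, which overlaps the range of C3.

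Of the membrane regulators, Cr1l and Cd55 had higher values in knockout neutrophils that did not pass the test. Cr1l stood at 52.9 and 72.1 CPM in wild type against 82.7, 91.5 and 101 CPM in knockout (log2 0.55, SE 0.362, adjusted p = 0.532, edgeR). Cd55 stood at 14.7 and 25.9 CPM in wild type against 27.2, 34.2 and 30.2 CPM in knockout (log2 0.59, SE 0.399, adjusted p = 0.548, edgeR). For both genes every knockout library was above every wild-type library, as for 17.0% of all genes tested. Cd59a (0.142 and 1.27 against 0.182, 1.66 and 2.81 CPM) and C3ar1 (0.463 and 1.90 against 0.910, 3.20 and 0.428 CPM) were low in all 5 libraries, with overlapping groups.

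**Figure D3:**
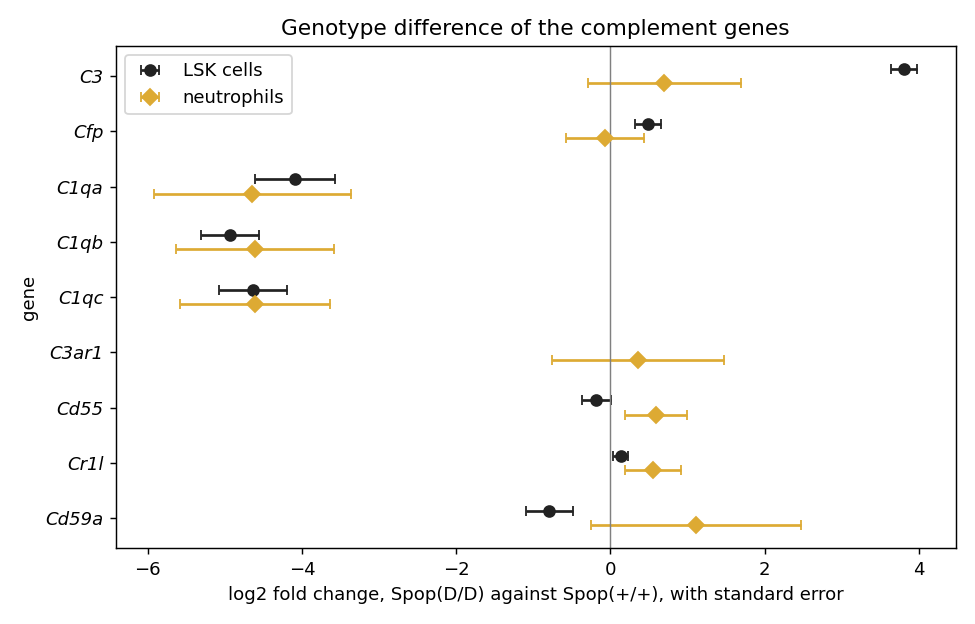
Log2 fold change of knockout against wild type (x axis) with its standard error for each complement gene (y axis), circles for LSK cells and diamonds for neutrophils; C3ar1 has no LSK value because it failed the filter. The C1q genes lie between -4.93 and -4.09 in LSK cells and between -4.64 and -4.61 in neutrophils, where the error bars are wider. In LSK cells they passed the filter only through wild type.

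C1q genes are known as products of tissue macrophages, so 18 macrophage markers were read beside them. Of 15 tested in LSK cells, 11 were lower and 3 higher in knockout at an adjusted p under 0.05 (edgeR), beside 21.2% and 21.0% of all genes. The median log2 fold change was -1.41, against -0.03 over all genes tested. Mertk and Cd5l, counted among the 11 lower, passed the expression filter only through wild type and could hardly be called higher. Among those lower were Spic, a transcription factor of red pulp and marrow macrophages (10.1 and 9.24 CPM in wild type, 0.469 and 1.44 in knockout), Cd5l (1.07 and 1.64, then 0.156 and 0) and the haem oxygenase Hmox1 (13.9 and 15.2, then 2.97 and 1.44). Mertk, Timd4 and Siglec1 were at 0 in both knockout LSK libraries, and at 0.152 to 1.12 CPM in wild type. The scavenger receptor Cd163 went from 19.8 and 21.3 to 7.35 and 8.09 CPM. Lower values were not particular to this list. At the same threshold 7 of 7 tested B cell markers and 6 of 7 red cell markers were lower in knockout LSK cells. For dendritic cell markers it was 2 lower and 1 higher of 7, and for T and NK cell markers 2 lower and 1 higher of 5.

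The 3 markers that were higher in knockout LSK cells, Csf1r, Cd68 and Cx3cr1, are also expressed by monocytes. Csf1r alone went from 27.5 and 45.6 CPM to 110 and 160 CPM. The macrophage list as a whole gave sums of 161 and 202 CPM (wild type) and 202 and 269 CPM (knockout). Sums over the monocyte list were 210 and 261 CPM (wild type) and 1194 and 1695 CPM (knockout). In bulk samples, fewer cells of a type and less RNA per cell cannot be told apart. The part of macrophage or monocyte transcripts in the C1q values was not tested.

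In neutrophils 14 of 17 tested macrophage markers had negative log2 fold changes and 11 had an unadjusted p under 0.05 with a lower level in knockout, beside 9.13% of all genes. None of the 17 passed after adjustment (edgeR). Timd4 and Cd163, counted among the 11 lower, passed the expression filter only through wild type and could hardly be called higher. Timd4 was at 0 in all 3 knockout libraries and at 0.676 and 7.28 CPM in wild type, and Cd5l stood at 5.87 and 26.0 CPM in wild type against 0.219, 0 and 0.795 CPM in knockout. The other 3 had positive values, 1.19 for the iron exporter gene Slc40a1, 1.02 for Siglec1 and 0.10 for Hmox1. Whether the lower C1q values in knockout neutrophils go with macrophage RNA was not tested.

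**Figure D4:**
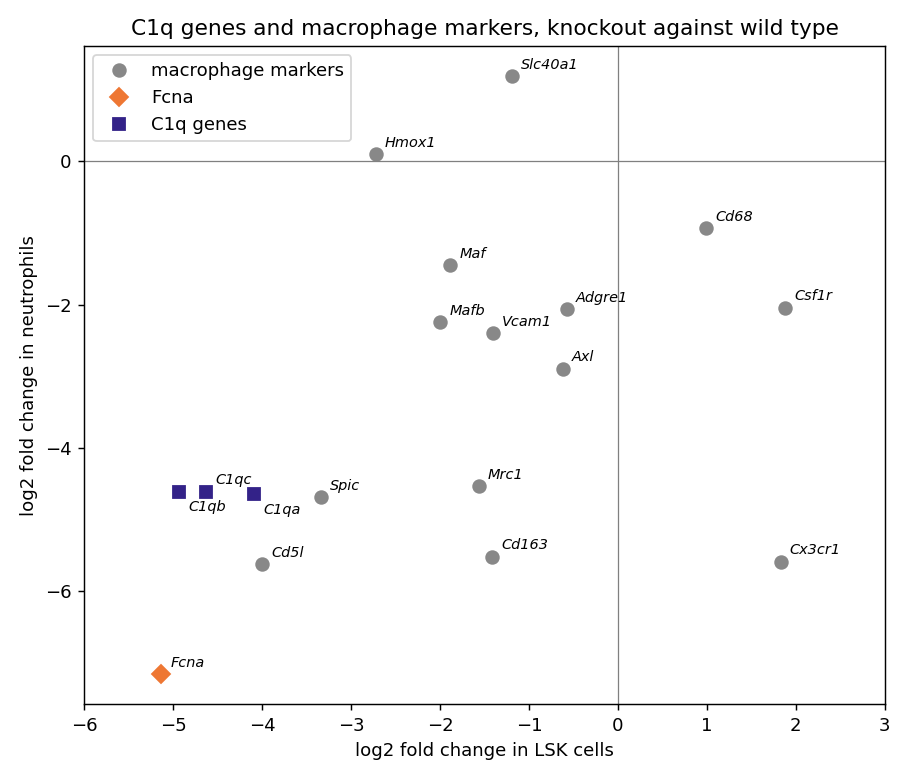
Log2 fold change of knockout against wild type in LSK cells (x axis) and in neutrophils (y axis) for the C1q genes (squares), Fcna (diamond) and macrophage markers tested in both (circles), leaving out Mertk and Timd4, which were at 0 in a knockout group. The C1q genes lie at -4.09 to -4.93 on the x axis, Spic at -3.34, while Csf1r, Cd68 and Cx3cr1 lie right of 0.

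The remaining complement genes were taken from a list of 48. In LSK cells 16 passed the expression filter, 6 of them rose in knockout and 3 fell (edgeR quasi-likelihood test, adjusted p under 0.05), beside 21.0% and 21.2% of all genes. Their median log2 fold change was -0.06, against -0.03 over all genes tested. Fcnb, among the 6, and Fcna, among the 3, owe the filter to the group where they were high. Their calls are therefore not read as tests. In a fit that shared its spread with the neutrophil libraries no gene of the whole table passed.

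Among the starters of the classical and lectin pathways, Fcna was lower and Fcnb higher in knockout. Fcna passed the expression filter only through wild type, and Fcnb only with the help of knockout libraries. Fcna encodes ficolin-A, made by macrophages. It stood at 3.91 and 3.94 CPM in wild-type against 0 and 0.213 CPM in knockout LSK cells. Fcnb, the ficolin of neutrophil granules, stood at 0.304 and 1.13 CPM in wild type against 5.68 and 3.56 CPM in knockout (log2 2.67, SE 0.566). Leaving out the first wild-type library gave 2.04 for Fcnb and leaving out the second 3.90. The Fcna difference, -5.13, was -4.13 leaving out the first knockout library, which held 0 reads. Leaving out the second leaves only the library at 0, for which no fold is given. C1ra, a protease of the C1 complex, rose by a log2 fold change of 0.62 (9.43 and 9.52 to 14.2 and 15.0 CPM, adjusted p = 0.0272, edgeR). That call was lost without either wild-type library (adjusted p = 0.109 and 0.107, edgeR) without the second knockout library (0.0708) and with upper-quartile scaling (0.0529).

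At the step beside C3, C4b rose in knockout LSK cells. It encodes complement C4 and stood at 2.49 and 1.97 CPM in wild type against 23.2 and 23.0 CPM in knockout (log2 3.37, SE 0.237, adjusted p = 7.47e-07, edgeR). Its copy C4a is near-identical, so reads can be split between the genes. C2, Cfb and Cfd did not pass the filter.

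Receptors moved apart. C1qbp, a mitochondrial protein first described as a C1q binder, rose from 210 and 203 to 374 and 393 CPM (log2 0.89, SE 0.0905). Itgam, the alpha chain of complement receptor 3, rose by 0.39 and its beta chain Itgb2 fell by 0.55 on the log2 scale. The Itgam call was lost without the first wild-type library (adjusted p = 0.217, edgeR), without the second knockout library (0.0623) and with upper-quartile scaling (0.0803), and the Itgb2 call without the first wild-type library (0.0977). Cd93, a receptor of stem and progenitor cells once taken for a C1q receptor, fell by 0.25, and that call was lost without any 1 of the 4 libraries (adjusted p = 0.0816 to 0.237, edgeR). Clu, a fluid-phase regulator of the terminal complex, rose by 1.15 (SE 0.296) but not without the first wild-type or the first knockout library (adjusted p = 0.0859 and 0.0503, edgeR). Cd46 and Cd59b, membrane regulators, stood at 1.03 CPM or less in every LSK library and did not pass the test (adjusted p = 0.106 and 0.111, edgeR).

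**Figure D5:**
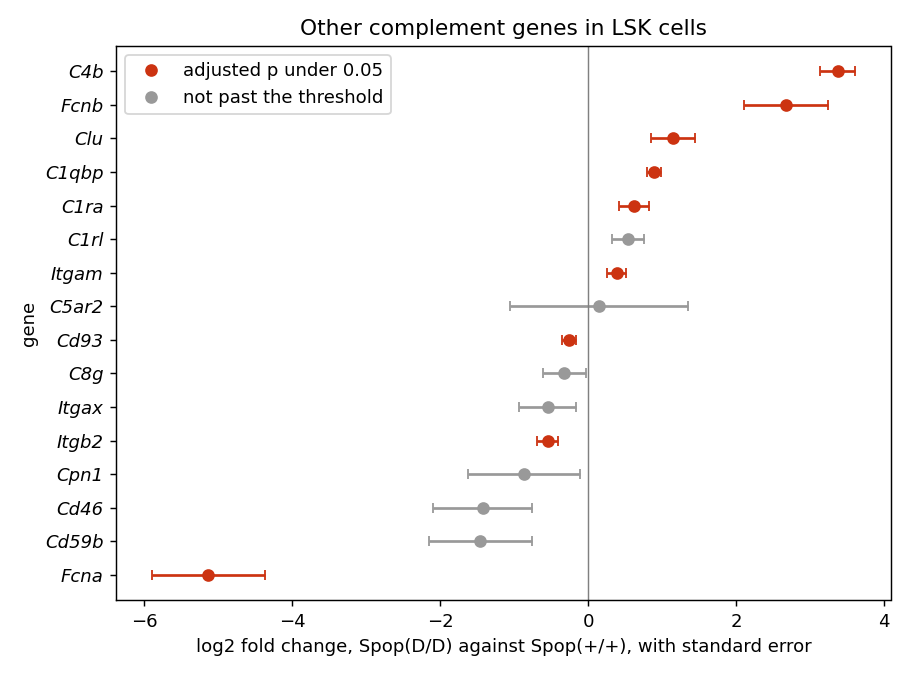
Log2 fold change of knockout against wild-type LSK cells (x axis) with its standard error for the 16 other complement genes that passed the filter (y axis); red points passed the test at an adjusted p under 0.05. C4b at 3.37 and Fcna at -5.13 lie farthest from 0. Fcna passed the filter only through wild type, and Fcnb only with the help of knockout libraries.

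In neutrophils 20 of the 48 genes were tested and 0 passed with edgeR, with 2 higher and 6 lower at an unadjusted p under 0.05, while DESeq2 called 5. Over all genes these shares were 4.79% higher, 9.13% lower and 6.84% called by DESeq2. Hc, 1 of the 2 higher, passed the expression filter only through knockout, and Fcna and Cr2, among the 6 lower, only through wild type. Their part in these counts is therefore not read as a test. The most abundant were receptor and granule genes. Itgb2 stood at 1202 and 477 CPM in wild type against 1734, 1885 and 695 CPM in knockout, and Itgam at 762 and 197 against 1471, 1613 and 583 CPM. C5ar1, the receptor of C5a, stood at 763 and 153 CPM in wild type against 1199, 1246 and 1098 CPM in knockout (log2 1.37, SE 0.742, adjusted p = 0.462, edgeR). The lowest value of each of these 3 genes belonged to the second wild-type library, in which neutrophil markers were low. Fcnb stood at 1505 and 113 CPM in wild type against 483, 278 and 910 CPM in knockout, C1rl at 62.6 and 7.92 against 93.5, 146 and 93.8 CPM, and C1qbp at 29.7 and 56.4 against 26.8, 15.4 and 20.7 CPM.

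Profiles over the 9 libraries were compared by the root mean square distance of log2 CPM, centred within each population, over 10837 genes. Genes whose log2 CPM averaged below 0 in LSK cells were left out. Macrophage markers that low there, such as Timd4 and Siglec1, could therefore not be listed as near. Their absence from the lists is no result. The single C1q genes lay 0.144 to 0.257 from their own mean profile, of which they are part. The nearest other genes were Ccr3 (0.789), Gfra2 (0.801), the variable segment Ighv1-76 (0.883), Sult1a1 (0.888), Il7r (0.904) and Adgre4 (0.954), where the median gene lay at 2.44. For C3 the nearest were Mtus1 (0.310), Sgip1 (0.423), Id1 (0.473), Prom1 (0.546), the neutrophil collagenase gene Mmp8 (0.567) and haptoglobin, Hp (0.585), with a median of 1.70. Mtus1 stood at 3.35 and 6.19 CPM in wild-type against 76.8 and 83.3 CPM in knockout LSK cells, and at 170 and 28.0 against 252, 350 and 138 CPM in neutrophils.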

How the data were processed

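Sorted LSK cells and Ly6G+ neutrophils were profiled by bulk RNA-seq with an RNeasy Micro and SMART-Seq v4 preparation, per the labels' protocols, a kit that does not keep strand. Tools listed, per the submitters' processing notes, are featureCounts, STAR, DESeq2 and bcl2fastq, with the builds GRCm38 and mm10 and no roles. Which annotation was counted is not given in the sources used here. Deposited by the authors were raw read counts per gene, which were tested, and normalized values (signal) equal to the counts divided by 1 factor per library, which were used only to check the raw counts. Ensembl identifiers of the LSK table were named with GENCODE M21 (35412 of 37187), and 34431 genes were joined by symbol for fits over both tables. One listed gene, Cd55b, was read under an older name in neutrophils.

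Within each population, counts were filtered by group, scaled by TMM and tested with edgeR 4.0.16 (R 4.3.3, robust quasi-likelihood F test, Benjamini-Hochberg adjustment over all genes, threshold 0.05). Alternatives were DESeq2 1.42.0, other scaling factors, no filter, a spread shared over 9 libraries, a replicate block and leaving out each library. Standard errors are the log2 fold change divided by the square root of F. The procedure was run on simulated counts with the same spread in both populations. The neutrophil libraries varied more than the LSK libraries, so that run says little about the neutrophil contrast. No replicate pair matched within sampling noise (chi-square per gene 9.87 and 18.0 in LSK cells, 105 to 810 in neutrophils). The genes, lists and tests were chosen with earlier results of these data known. The rule for naming took the 9 genes, other complement genes past the threshold or else the 6 most abundant, the 6 nearest profiles, and cell type markers.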

Additional observations from a re-analysis of the deposited data

How the results depend on the processing

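With 2 or 3 libraries a group, counts of calls moved with the libraries and the estimate of spread. In LSK cells 5494 genes passed, 3524 to 5718 when 1 library was left out and 0 with the spread shared over 9 libraries. Other complement genes that rose were 6 (3 to 6, and 0 with the shared spread), and those that fell were 3 (1 to 2, and 0). In neutrophils 0 genes passed, but 877 did with DESeq2, 334 without the filter, 528 with the shared spread and 601 without the first wild-type library (0 without any other). Other complement genes past the threshold there were 0, 5 with DESeq2, 2 without the filter, 2 with the shared spread and 5 without the first wild-type library. Of the 9 genes, 0 passed, 3 with DESeq2, 2 with the shared spread and 2 without the first wild-type library. The cause was not tested.

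Deviations of same-numbered libraries from their group means correlated at 0.00393 in LSK cells and at 0.239 and -0.0241 in neutrophils. Deviations within each wild-type group are mirror images, so whether the numbers pair the libraries could not be settled. With the replicate block 5776 genes passed in LSK cells, and 334 genes, 4 other complement genes and 3 of the 9 genes in neutrophils.

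Directions turned in neutrophils for C3 without the second wild-type library (-0.20, and 3.27 without the first), for Cfp with the replicate block (0.22), without the third knockout library (0.12) and lacking the first wild-type library (0.61, and -0.53 lacking the second), and for C3ar1 without the second knockout library (-0.80) and lacking the first wild-type library (-0.26, and 1.67 lacking the second). In LSK cells the C3 difference stayed between 3.64 and 4.03 and those of C1qa, C1qb and C1qc between -5.15 and -3.49. The fit without both the second wild-type and the third knockout neutrophil library was chosen after seeing the data. Knockout LSK values of C1q, from 3 to 10 reads a library, are limited by depth.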

Other observations

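Hc encodes complement C5, the target of the terminal convertases. It was singled out after its values were seen. It stood at 0.0712 and 0.0302 CPM in wild-type neutrophils, 3 reads in all, and at 2.73, 6.99 and 3.30 CPM in knockout, 306 reads in all. Hc passed the expression filter only through the knockout group, so no ratio or test is given. All 4 LSK libraries held 0 reads of Hc. The genotypes of the neutrophil libraries also differ in sex, from which genotype cannot be told apart.

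C4b, which rose in knockout LSK cells, stood at 0.320 and 1.21 CPM in wild-type neutrophils and at 16.3, 81.6 and 0.918 CPM in knockout. The groups overlapped, and the third knockout library lay within the wild-type range. Fcna stood at 15.2 and 28.6 CPM in wild-type neutrophils and at 0.0728, 0 and 0.428 CPM in knockout. Both genes were named here after their values were seen.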
